A study of Mus musculus with 6 samples.

Results

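Lubricin and hyaluronan are the molecules that make joint fluid slippery and joint tissue soft. The genes described here are Prg4, which encodes lubricin, the hyaluronan synthases Has1, Has2 and Has3, the enzymes and proteins of hyaluronan breakdown Hyal1, Hyal2 and Cemip, the hyaluronan receptor Cd44, and Tnfaip6, whose product links proteins to hyaluronan. They were chosen by name, and all 9 were found among the 23170 genes of a table in which the authors compared both groups of the study. The RNA came from subchondral bone of the mandibular condyle, the rounded knob on which the lower jaw turns in the temporomandibular joint. It was sequenced from 3 libraries labelled as sham operation and 3 labelled as partial discectomy, the removal of part of the joint's disc. All mice are labelled wild type, with no transgene or drug named, and surgery was on 1 side. The age label of all 6 libraries reads P6w+PO2w, and its prefixes are not spelled out. The sample descriptions carry the endings Rctrl (sham) and LPD (partial discectomy), which no label explains and which cannot be told apart from surgery. Whether the 3 libraries of each kind are from 3 mice is not stated, so their spread may be technical. Each description also holds a number. The libraries titled Sham 3 and PD 3 both have 6, and no other number recurs. What the number stands for is not stated. A sham and a partial discectomy library may therefore come from the same mouse, and independence of the groups was not tested.

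The table holds means of each group and no values for named libraries, and depth is unknown. The model behind its p-values is not named. Its levels are normalized expression in a unit that is not named, with a smallest value of 1, and ratios below divide the partial discectomy mean by the sham mean. Whether levels are scaled to gene length is not given in the sources used here, so levels are compared between groups, and between genes only to choose examples and to say which lie near the smallest value. Genes of bone were well above it, as the 8 osteoblast markers had group means from 135 for Sp7 to 34180 for Col1a1 according to the authors' deposited table. The 7 of 8 chondrocyte markers in the authors' deposited table had group means from 8.05 for Matn3 to 3181 for Col2a1. Neutrophil and erythroid markers rose strongly in the same comparison. Of 7 lymphocyte markers all had a ratio above 1 and 2 were called higher, and of 8 macrophage markers 4 had a ratio above 1 and 0 were called. The summed levels of 10 neutrophil markers, above the smallest value, were 1336 after partial discectomy and 101 in sham, with 8 of 10 called higher, and those of 8 erythroid markers were 227 and 11.9, with 8 of 8 called higher, as read from the authors' deposited table.

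Lubricin is a large secreted glycoprotein made by the surface layer of joint cartilage and by the cells that line the joint, and it keeps sliding surfaces apart as a boundary lubricant. Hyaluronan is a long unbranched sugar polymer that the synthases build at the cell membrane and push out of the cell. The hyaluronidase Hyal2 at the cell surface and Hyal1 in lysosomes cut it into fragments, Cemip starts its breakdown outside the cell, and Cd44 holds it to the cell surface. Tnfaip6, also called TSG-6, moves heavy chains of a serum protein onto hyaluronan during inflammation.

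The middle of lubricin is a mucin-like domain made of short repeats that carry sugars, and its coding sequence is repetitive as well. Read from the GENCODE M21 transcripts (build GRCm38), the longest Prg4 coding sequence has 3663 bases. In it a unit of 24 bases occurs 18 times in frame, between coding bases 1039 and 2328. The stretch from coding base 1489 to 1608 is shown because a read that matches such repeats in more than 1 place cannot be placed at 1 position. Capitals mark exact copies of the unit, of which this stretch holds 4.
Prg4: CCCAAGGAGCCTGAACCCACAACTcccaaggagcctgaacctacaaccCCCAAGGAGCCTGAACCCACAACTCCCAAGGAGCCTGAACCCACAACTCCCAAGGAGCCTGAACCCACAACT
Of the 4214 windows of 50 bases in that transcript, 764 (18.1%) occur more than once in it, while the other 8 genes have 0 such windows. How reads of this kind were counted is not given in the sources used here, and it bears on the level of Prg4 in both groups.

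The synthases are close relatives, and the place where their reads are hardest to tell apart is short. Has2 and Has3 share at most 23 coding bases in a row, and Has1 shares at most 17 with either. The longest run is shown with 12 bases on each side, the shared bases in capitals.
Has2: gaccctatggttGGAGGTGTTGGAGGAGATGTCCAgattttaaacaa
Has3: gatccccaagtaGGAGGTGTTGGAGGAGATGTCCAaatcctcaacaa
No window of 50 bases in the transcripts of Has1, Has2 or Has3 occurs in another synthase. The hyaluronidases Hyal1 and Hyal2 share at most 14 coding bases in a row.

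None of the 9 genes passed the threshold of an adjusted p under 0.05 according to the authors' deposited table. Across all genes 2.38% passed, 2.28% higher and 0.104% lower. The smallest adjusted p among the 9 was 0.288, for Has3. The unadjusted p was under 0.05 for 1 of the 9, Has3, as read from the authors' deposited table, as for 14.2% of all genes and, with the lower mean after partial discectomy, 3.31%. Of the 9 ratios 5 were above 1 and 4 below, and they ran from 0.608 for Prg4 to 1.17 for Hyal2 according to the authors' deposited table. Their median log2 ratio was 0.02, beside 0.08 over all genes, of which 62.7% had a ratio above 1. For 7 of the 9 the 95% limits as read from the authors' deposited table lay within a 2-fold change either way, and those 7 are all but Prg4 and Has1. In bulk tissue, fewer cells of a type and less RNA per cell cannot be told apart.

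**Figure D1:**
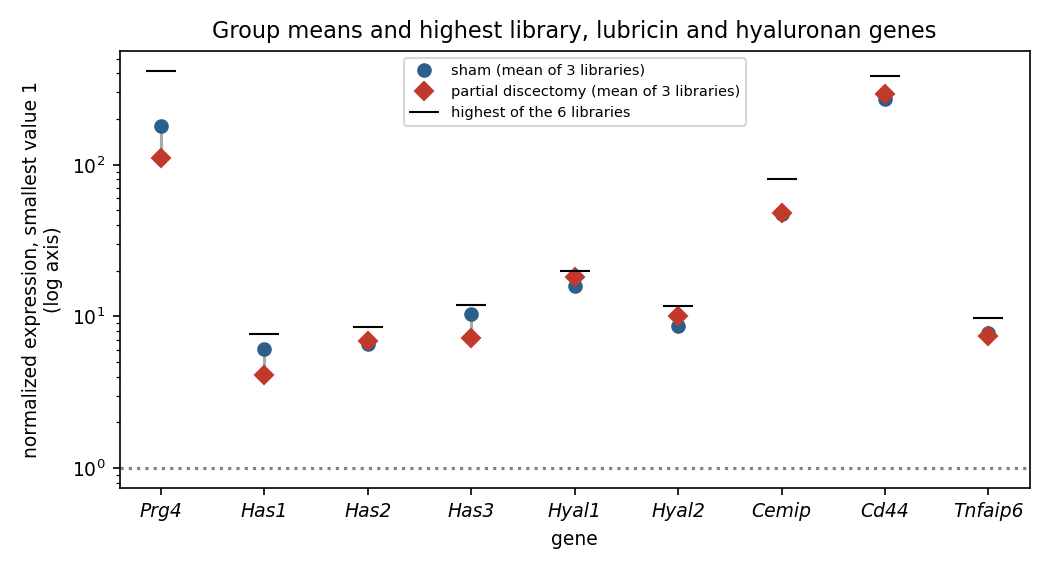
Normalized expression (log axis, smallest value 1) of the 9 genes, with the sham mean as circles, the partial discectomy mean as diamonds and the highest of the 6 libraries as bars; each mean is of 3 libraries and is the authors' own, without an error. Prg4 stands at 110 after partial discectomy and 181 in sham with a highest library at 418, while for the other 8 genes the highest library is nearer to the means.

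Each gene's summaries also bound the 6 library values behind them. The table gives both group means, the highest of the 6 libraries and their geometric mean, and for some genes only 1 group can hold the highest library, taking no library value to lie under 1. Of all 23170 genes the highest library had to be a partial discectomy library for 44.6% and a sham library for 21.9%, and 0 genes had summaries that no set of 6 values could give. Among the 9 genes it had to be in sham for Prg4, Has1 and Has3 and after partial discectomy for Hyal1, and it was not settled for the other 5. The groups had to overlap for 6 of the 9, where 61.8% of all genes had groups that must overlap. They had to be apart for 1, Has3.

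Lubricin RNA showed the widest uncertainty of the 9 genes. Prg4 (chromosome 1, 150449412 to 150466165, minus strand) had a mean of 110 after partial discectomy and 181 in sham according to the authors' deposited table. The ratio was 0.608 with 95% limits from 0.150 to 2.47 and an adjusted p of 0.943 as read from the authors' deposited table, so that neither a several-fold loss nor a rise to more than double is outside the limits. These limits span 16.5-fold from end to end, against a median of 1.95-fold for the 10286 genes with a mean at least 5 above the smallest value. Only a small part of those genes had wider limits, as Prg4 lay at percentile 99.8 of them.

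A single sham library held most of the sham signal of Prg4. The highest library stood at 418 according to the authors' deposited table, above the whole partial discectomy total of 330, so it had to be a sham library. It held 76.9% of the sham total of 543, where an even spread gives 33.3%. The other 2 sham libraries summed to 125, a mean of 62.7, which is below the partial discectomy mean of 110. Leaving out that library turned the ratio from 0.608 to 1.76, for which no p can be computed from the authors' deposited table. The lowest sham library was at most 62.7 and the highest partial discectomy library at least 112, so the groups overlap. Among the 1511 genes with a mean at least 5 above the smallest value and a highest library that must be sham, the median share was 39.3% and 4 genes, Prg4 included, had a share as large as that of Prg4.

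Muscle, some joint-surface and some chondrocyte genes had a high sham library too, and the table does not show whether it was the same one. All 7 skeletal muscle markers had a ratio below 1 with 0 called, and for 6 of them the highest library had to be sham, with 49.6% to 69.0% of the sham total. Actin of skeletal muscle, Acta1, had 142 in that library, a mean of 37.5 in the other 2 sham libraries and 49.4 after partial discectomy as read from the authors' deposited table. For Htra4, a protease among the synovial lining markers, these values were 28.5, 8.44 and 8.13, and for Abi3bp, a matrix protein of the superficial zone list, 101, 42.5 and 37.9 according to the authors' deposited table. Of 8 synovial lining markers 0 were called. Their summed levels above the smallest value were 347 after partial discectomy and 343 in sham, of which Prg4 itself gave 109 and 180. Near equality of these sums therefore rests in part on Prg4. The highest library had to be sham for 3 of the 8 markers, Prg4 included, and a partial discectomy library for 2, Vcam1 and Cd55. The ratios of those 2 were 2.63 (adjusted p = 0.166) and 1.32 as read from the authors' deposited table. Among the 11 genes of the superficial zone list it had to be sham for 4, Prg4 included, and a partial discectomy library for 4, Cilp, Cilp2, Cytl1 and Erg. Among the 7 chondrocyte markers the highest library had to be sham for 2, Matn3 and Sox9, and a partial discectomy library for 0. It held 70.4% of the sham total for Matn3 and 49.8% for Sox9. Without it the ratio of Matn3 went from 0.656 to 1.48 and that of Sox9 from 0.865 to 1.15. The part of muscle, lining tissue or cartilage in the Prg4 values was not tested. The 3' end of Prg4 overlaps that of Tpr, a nuclear pore gene on the other strand, by 204 exonic bases, or 4.77% of the exonic bases of Prg4, and reads from there cannot be told apart unless strand was used. Tpr had means of 141 and 136 as read from the authors' deposited table.

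**Figure D2:**
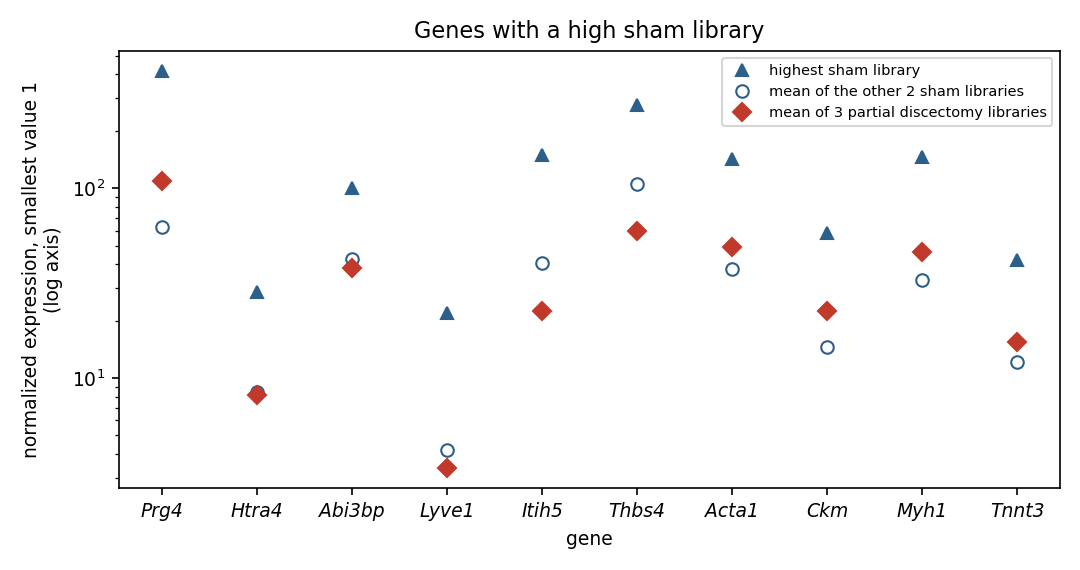
Normalized expression (log axis) of Prg4 and 9 genes picked after their values were seen, all with a highest library that must be sham: triangles are that library, open circles the mean of the other 2 sham libraries and diamonds the mean of 3 partial discectomy libraries. For Prg4, Acta1, Ckm, Myh1 and Tnnt3 the open circle is below the diamond, and for the other 5 genes it is above, most clearly for Itih5 and Thbs4.

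Of the 3 synthases, Has1 and Has3 had lower means after partial discectomy than in sham and Has2 had nearly equal ones, with no call. Has3 (chromosome 8, 106870242 to 106884566, plus strand), the synthase with the shorter products, had 7.24 after partial discectomy and 10.3 in sham according to the authors' deposited table. The highest library stood at 11.8 and had to be sham, with a mean of 9.59 in the other 2 sham libraries, as read from the authors' deposited table. In every set of library values tried that gives these summaries, all 3 sham libraries were above all 3 partial discectomy libraries. Groups that had to be apart with partial discectomy lower made up 3.28% of all genes. The ratio was 0.701 with 95% limits from 0.510 to 0.962, an unadjusted p of 0.0322 and an adjusted p of 0.288 according to the authors' deposited table, so Has3 did not pass the threshold over all genes. Limits on 1 side of equal means were found for 14.7% of all genes, and wholly below them for 3.59%. The 3' end of Has3 shares 352 exonic bases, 5.52% of its own, with Chtf8 on the other strand, which had means of 10.1 and 8.65 as read from the authors' deposited table, a ratio of 1.16.

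Has1 (chromosome 17, 17843323 to 17855205, minus strand), generally held to be the least active synthase, had 4.11 after partial discectomy and 6.06 in sham according to the authors' deposited table. Its highest library, at 7.62, had to be sham, and the other 2 sham libraries had a mean of 5.28, still above the partial discectomy mean. The lowest sham library can lie from 3.84 to 5.28 and the highest partial discectomy library from 4.13 to 5.48. Some sets of library values that fit have the groups apart and others have them overlap, so the summaries do not settle it. The ratio was 0.678 with 95% limits from 0.446 to 1.03, p = 0.0844 and an adjusted p of 0.430 as read from the authors' deposited table. With the smallest value of 1 subtracted from both means the ratio was 0.614 according to the authors' deposited table. Both means of Has1 lie near that smallest value, and the deposited ratio then sits closer to 1 than the ratio of what lies above it.

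Has2 (chromosome 15, 56665627 to 56694539, minus strand), the synthase that embryos and most connective tissue rely on, had 6.93 and 6.56 as read from the authors' deposited table. Its ratio was 1.06 with 95% limits from 0.737 to 1.51 and an adjusted p of 0.882 according to the authors' deposited table. Set against the median of all genes its log2 ratio turned from 0.08 to -0.0017, and set against the summed group means to -0.054, so that no direction can be given. The highest library was 8.46 as read from the authors' deposited table, and the groups had to overlap. The antisense transcript Has2os shares 182 exonic bases with Has2, 4.30% of the exonic bases of Has2, and without a stated strand setting their reads cannot be told apart there. Has2os had means of 1.91 and 2.14 according to the authors' deposited table.

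**Figure D3:**
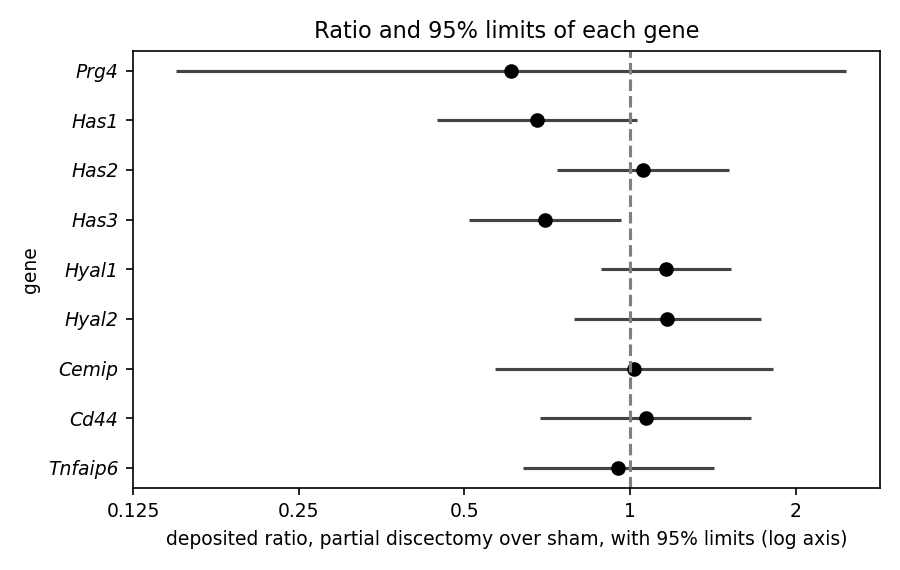
Deposited ratio of partial discectomy over sham (log axis) of the 9 genes as points, with the authors' 95% limits as lines and equal means as a dashed line. The limits of Has3 lie wholly below equal means, from 0.510 to 0.962, those of the other 8 genes span it, and those of Prg4 are the widest, from 0.150 to 2.47.

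The genes of hyaluronan breakdown had ratios near or slightly above 1 and no call. Hyal1 (chromosome 9, 107576927 to 107581710, plus strand) had 18.3 after partial discectomy and 15.7 in sham as read from the authors' deposited table. Its highest library, 19.8, had to be a partial discectomy library and lay close to the mean of the other 2, 17.6. The ratio was 1.16 with 95% limits from 0.884 to 1.53 and an adjusted p of 0.622 according to the authors' deposited table. Hyal1 cannot be read as 1 gene, since 1920 of its exonic bases, 50.8%, also belong to the acetyltransferase gene Naa80 on the same strand, and 63.1% of the 50-base windows of its transcript occur in Naa80 transcripts. Naa80 had means of 19.5 and 14.7 and a ratio of 1.33 (adjusted p = 0.366) as read from the authors' deposited table.

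Hyal2 (chromosome 9, 107567945 to 107572779, plus strand), whose product sits at the cell surface, lies just before Hyal1 on the same strand. It had 10.1 after partial discectomy and 8.61 in sham, with a highest library of 11.7, according to the authors' deposited table. The ratio was 1.17 with 95% limits from 0.790 to 1.73 and an adjusted p of 0.741 as read from the authors' deposited table, and the groups had to overlap. No exonic base of Hyal2 is shared with another annotated gene. The ratios of Hyal1 and Hyal2 stayed above 1 when set against the median of all genes or the summed group means.

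Cemip (chromosome 7, 83932857 to 84086502, minus strand) encodes a hyaluronan-binding protein needed for hyaluronan breakdown in skin and joint fibroblasts. Its means were 48.4 and 47.6 according to the authors' deposited table, a ratio of 1.02 with 95% limits from 0.568 to 1.82 and an adjusted p of 0.858. The highest library stood at 80.9 as read from the authors' deposited table, well above both means, and could belong to either group. The groups had to overlap, and against the median of all genes or the summed group means the log2 ratio turned from 0.02 to -0.056 or -0.11.

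Cd44 (chromosome 2, 102811141 to 102901665, minus strand) is carried by stromal cells, osteoclasts and most white blood cells. It had 292 after partial discectomy and 273 in sham, with a highest library of 387, according to the authors' deposited table. The ratio was 1.07 with 95% limits from 0.687 to 1.66 and an adjusted p of 0.956 as read from the authors' deposited table. The groups had to overlap, and against the summed group means the log2 ratio turned from 0.10 to -0.037. The neutrophil markers given above rose in the same comparison, while Cd44 did not pass the threshold. How much of Cd44 came from each cell type was not tested.

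Tnfaip6 (chromosome 2, 52038009 to 52056686, plus strand), which cytokines of inflammation switch on in many cells, had 7.38 after partial discectomy and 7.75 in sham according to the authors' deposited table. The ratio was 0.952 with 95% limits from 0.639 to 1.42 and an adjusted p of 0.907 as read from the authors' deposited table. Its highest library, 9.78, could belong to either group, and the groups had to overlap. A 2-fold rise of Tnfaip6 lies outside these limits.

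Other genes of these pathways were taken from 9 lists, which hold 79 genes of the table besides the 9. Of the 79, 5 rose and none fell according to the authors' deposited table (6.33% called, beside 2.38% of all genes), while an unadjusted p under 0.05 was found for 14 with a higher and 6 with a lower mean (10.9% and 3.31% of all genes). The 5 were Ptx3, Selplg, Ank1, Il1b and Ctsg. For each of them all 3 partial discectomy libraries had to be above all 3 sham libraries, as for 10.2% of all genes. The 5 were called on these same libraries, so their separation adds no further support. The median log2 ratio of the 79 was 0.07, beside 0.08 over all genes.

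The proteins that build hyaluronan matrix gave the call nearest to the pathway. Of 12 genes of this list 1 rose, Ptx3, which encodes a pentraxin that joins Tnfaip6 protein in cross-linking hyaluronan. Ptx3 had 6.50 after partial discectomy against 2.24 in sham, with a ratio of 2.90 with 95% limits from 2.01 to 4.17 and an adjusted p of 0.0125 as read from the authors' deposited table. With the smallest value of 1 subtracted from both means the ratio was 4.42. Its highest library, 7.10, had to be a partial discectomy library and held 36.4% of that total, close to an even spread, and the groups had to be apart. The proteoglycan Acan, the link protein Hapln1 and the proteoglycan Vcan, which bind hyaluronan in cartilage and connective tissue, had ratios of 0.931, 1.01 and 0.830 according to the authors' deposited table, with no call. Median log2 over the list was -0.09, and 3 of 12 ratios were above 1.

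Enzymes that make the sugar precursors of hyaluronan showed no call among 10 genes, with 4 ratios above 1. Gfpt1, the first enzyme of the hexosamine route, and Ugdh, which makes UDP-glucuronate, had ratios of 0.931 and 0.956 as read from the authors' deposited table. Gpi1, a glycolytic enzyme in the same list, had 1.50 (95% limits 1.04 to 2.17, adjusted p = 0.321) according to the authors' deposited table. Among 8 breakdown genes in the table none was called and 7 had a ratio above 1. The lysosomal enzyme Hexa, which trims hyaluronan fragments among other substrates, had a ratio of 1.62 (0.949 to 2.78) as read from the authors' deposited table. Its highest library had to be a partial discectomy library, and without it the ratio was 1.23. Osteoclast markers had summed levels of 1950 and 1030 in the same comparison, with ratios above 1 for all 7 and 0 called, and their part in the value of Hexa was not tested. Cemip2, a cell-surface relative of Cemip, had a ratio of 0.842 (0.619 to 1.15) according to the authors' deposited table.

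**Figure D4:**
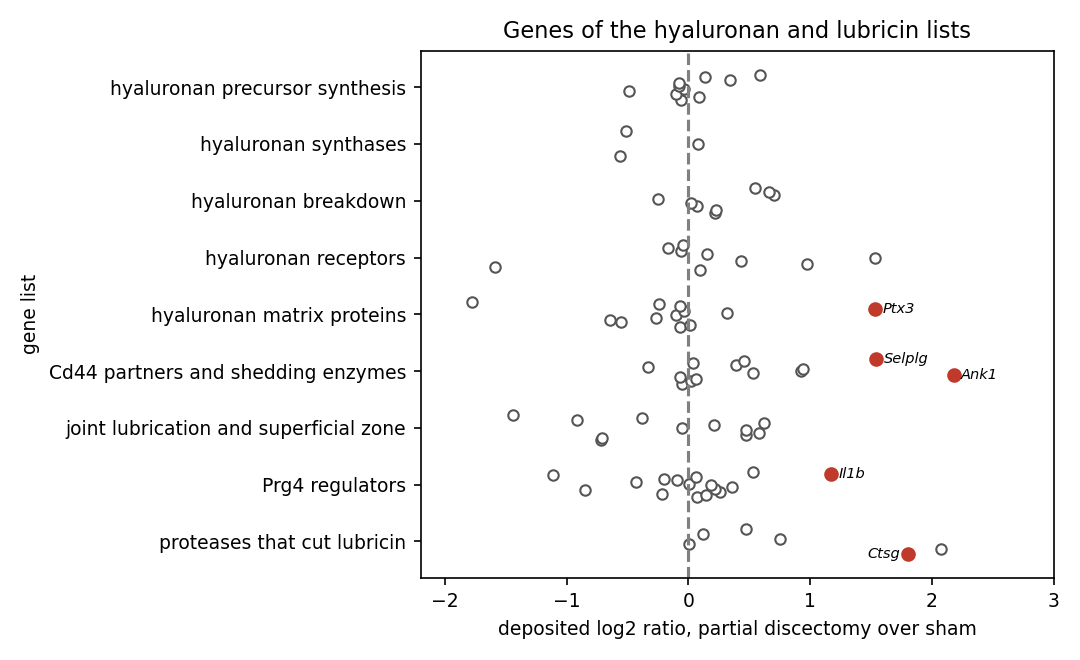
Deposited log2 ratio of partial discectomy over sham for each gene of the 9 lists, filled and named where the adjusted p was under 0.05 and open otherwise, with equal means as a dashed line. All 5 named genes lie to the right of the line, and each list has open points on both sides except the proteases, whose 6 ratios are above 1.

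Of 9 genes in the list of hyaluronan receptors none was called, and 5 ratios were above 1. The list also holds Ptger4, which encodes a prostaglandin receptor and had a ratio of 0.967. Stab1, a scavenger receptor of sinusoid lining and macrophages, had 52.3 and 38.7, a ratio of 1.35 (1.01 to 1.82, adjusted p = 0.320), and Tlr4 had 0.889 as read from the authors' deposited table. Of 13 partners of Cd44 and enzymes that shed it 2 rose. Selplg, a selectin ligand of white blood cells, had 31.0 and 10.6, a ratio of 2.91 (1.88 to 4.51, adjusted p = 0.0279) according to the authors' deposited table. Ank1, the ankyrin of red cells, had 33.3 and 7.36, a ratio of 4.53 (2.48 to 8.28, adjusted p = 0.0308) as read from the authors' deposited table. Markers of neutrophils and red cells rose in the same comparison, and the part of blood cells in Selplg and Ank1 was not tested. Of the others Spp1, which encodes the Cd44 ligand osteopontin, Mmp9 and Msn had ratios of 1.90 (0.769 to 4.70), 1.92 (0.898 to 4.11) and 1.04 according to the authors' deposited table.

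Among the genes tied to lubricin 2 rose, Il1b and Ctsg, both made by white blood cells. Of 11 genes of joint lubrication and the superficial zone none was called, with a median log2 ratio of -0.05. Cilp, a cartilage matrix protein, had a ratio of 1.39 (0.813 to 2.37) as read from the authors' deposited table, and 0.952 without the highest library. Among 16 regulators of Prg4 the cytokine gene Il1b rose from 1.11 to 2.49, a ratio of 2.25 (1.60 to 3.17, adjusted p = 0.0323) according to the authors' deposited table, from a sham mean next to the smallest value of 1. With that value subtracted the means were 1.49 and 0.106, a log2 ratio of 3.81 in place of 1.17. Nfat5, Tgfbr2 and Tgfbr1 had ratios of 0.861, 1.14 and 1.28 as read from the authors' deposited table. Of 6 proteases known to cut lubricin or related proteins 1 rose, the neutrophil protease Ctsg, with 10.9 and 3.12, a ratio of 3.50 (1.82 to 6.73, adjusted p = 0.0479) according to the authors' deposited table. The cathepsins Ctsk, Ctsb and Ctsl had ratios of 1.68 (0.974 to 2.91), 1.00 and 1.08 as read from the authors' deposited table. Neutrophil markers rose in the same comparison, and their part in Ctsg and Il1b was not tested.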

How the data were processed

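Per the submitters' processing notes, reads were aligned with STAR 2.6.1d, and the mouse build mm10 was used. For read length, counter, gene filter, normalization and model, the procedure is not given in the sources used here. The authors deposited group means, totals, highest values and geometric means over 6 libraries as a signal with a smallest value of 1. They also deposited the ratio, its log2 value, a signed fold change with 95% limits entered as a score, and the p-value with its adjusted p. The deposited ratio was the quotient of the group means, and the adjusted p equalled the Benjamini-Hochberg adjustment over 23170 genes. Signed limits were turned into ratios. The second file held gene positions and symbols and was not used. Its end positions, like those of the table, lie 1 base past GENCODE's, which are printed.

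A gene was called at an adjusted p under 0.05. Sets of 6 values at or above 1 that fit the group means, highest value and geometric mean were enumerated on a grid of 1500 points a side for the 9 genes and 200 for all genes, which was tested on simulated data. On the coarser grid no fitting set was found for 66 genes, though bounds on their values allow such sets. Those 66 count as neither apart nor overlapping and stay among the 23170 genes behind the shares. Python 3.11.15 was used. A count-based test per library could not be run on group means. The 9 genes and the lists were chosen with earlier results of these data known. Named list genes are those called and the 3 with the highest mean, and others were picked after their values were seen. A list gene that this rule names is not reported here by name.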

Additional observations from a re-analysis of the deposited data

How the results depend on the processing

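No paired analysis was possible because values per library were not analysed here, and for the same reason no named replicate could be left out. Whether any sham and partial discectomy libraries share a mouse is also not stated. Of the 9 genes, 0 were called when p-values were adjusted over genes with a mean at least 1 or at least 5 above the smallest value or over protein-coding genes (smallest adjusted p 0.265, 0.285 and 0.243), and 1, Has3, by an unadjusted p under 0.05 and by the 95% limits. Leaving out the highest library, possible for 4 of the 9 genes, turned the log2 ratio of Prg4 from -0.72 to 0.81, and Has1, Has3 and Hyal1 kept their direction. Centring on the median of all genes turned Has2 to -0.0017 and Cemip to -0.056, and centring on the summed group means turned Has2 to -0.054, Cemip to -0.11 and Cd44 to -0.037. With the smallest value subtracted, 9 of 9 kept their direction. Subtracting it from the 5 called list genes, an alternative chosen after seeing the data, moved the log2 ratios of Ptx3 from 1.53 to 2.14 and of Il1b from 1.17 to 3.81, beyond their limits. By an unadjusted p under 0.05, met by 14.2% of all genes, genes in the lists, members included, numbered 1 for precursor synthesis, 3 for receptors, 3 for Cd44 partners and 3 for proteases, all higher, and 1 for synthases, lower. Matrix proteins and joint lubrication each had 3 (1 higher, 2 lower), Prg4 regulators 4 (2 higher, 2 lower) and breakdown 0. Adjusted over genes with a mean at least 5 above the smallest value, matrix proteins and Prg4 regulators had 0, since Ptx3 and Il1b lie under that mean and were not tested.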

Other observations

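Several genes of the lists had far lower means after partial discectomy and did not pass the threshold, and they were picked here after their values were seen. Itih5, which encodes a heavy chain of the kind that Tnfaip6 moves onto hyaluronan, had 22.5 after partial discectomy against 77.3 in sham, with a ratio of 0.291 (95% limits 0.143 to 0.592, adjusted p = 0.158) as read from the authors' deposited table. Its highest library, 151, had to be sham and held 65.0% of the sham total, and without it the ratio was 0.555. Thbs4, a matrix protein of tendon and cartilage, had 59.6 and 162, a ratio of 0.368 (0.201 to 0.673, adjusted p = 0.139) according to the authors' deposited table, and 0.563 without its highest sham library. For both genes the groups had to be apart, as for 3.28% of all genes with partial discectomy lower. Both were picked on these same libraries, so their separation adds no further support. Lyve1, the hyaluronan receptor of lymphatic vessels and some macrophages, had 3.37 and 10.1 as read from the authors' deposited table. Its 95% limits ran from 0.121 to 0.915 with an adjusted p of 0.514, and its groups had to overlap. A single sham library at 22.1 held 72.5% of the Lyve1 sham total, and without it the ratio went from 0.332 to 0.806.

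Other receptors of hyaluronan had higher means after partial discectomy without a call. Stab2, a clearance receptor of sinusoid lining, had 7.39 and 2.56, a ratio of 2.88 (1.37 to 6.05, adjusted p = 0.241) according to the authors' deposited table. Hmmr, which also marks dividing cells, had 17.5 and 8.89, a ratio of 1.96 (1.14 to 3.40, adjusted p = 0.219) as read from the authors' deposited table. The transcription factors Creb5 and Nfatc2, both listed for their ties to Prg4, had ratios of 0.530 (0.325 to 0.864, adjusted p = 0.267) and 0.556 (0.375 to 0.825, adjusted p = 0.153) according to the authors' deposited table.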
